A study of Mus musculus with 26 samples.

Results

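The collagen genes were described in bulk RNA-seq of mouse colon. They were the protein-coding genes of the GRCm38 Ensembl annotation whose symbol is Col, a number, a and a number, and 44 of the 35975 genes with summed counts met that rule. RNA came from 26 colon samples of wild type male C57BL/6J mice, bought from Taconic and about 10 weeks old at the start. The mice ate a standard diet (STD) or a diet with GW3965, an agonist of the liver X receptors (LXR). Azoxymethane (AOM, 10 mg per kg body weight), a carcinogen, was given once. Dextran sodium sulfate (DSS), which injures the colonic epithelium, was given in the drinking water for 7 days in each of up to 3 cycles. By the paper's schedule DSS began 1 week after AOM, with 2 weeks of water between cycles. Mice of days 22, 43 and 70 had therefore had 1, 2 and 3 cycles, so day and number of cycles cannot be told apart. The paper took RNA from distal colon where tumours form. It reports no macroscopic tumours at day 22 and, at day 43, tumours nearly confined to the standard diet. By day 70 it reports them in both diets, to differing extents. The part of tumour tissue in the collagen levels of days 43 and 70 was not tested. Per diet, 3 libraries came from each of days 22, 43 and 70 after AOM, and 4 from untreated controls, here called day 0, which had eaten the diet for 22 days (2 libraries) or 43 days (2 libraries) without AOM or DSS. Each diet's day 22 and day 43 mice shared 1 cage and its day 0 mice another, so diet and cage cannot be told apart at days 0, 22 and 43, whereas each day 70 library had its own cage. No treated mouse shared a cage with a day 0 mouse, so treatment and cage cannot be told apart in any comparison with day 0. For 1 control, GW3965 replicate 2 of 43 diet days, the title names GW3965 and the diet label STD, and it was placed by its title.

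The authors deposited estimated counts and TPM (length-scaled transcript abundance) per transcript, which were summed here by gene. Total counts per library ran from 18195345 to 41522204. CPM are library-scaled counts after TMM, and TPM are used where levels of different genes are set side by side. Tests were edgeR's quasi-likelihood F-test on all 17063 genes that passed the filter on low counts, in 8 groups with the ribosomal percentage, the share of counts from ribosomal protein genes, as a further term, and a gene was called at an adjusted P (Benjamini-Hochberg) below 0.05. Of the 44 collagen genes, 40 passed the filter. *Col2a1*, *Col6a6*, *Col10a1* and *Col19a1* did not, and their medians over the 26 libraries were 0, 0, 0.0530 and 0 CPM. All 9 epithelial markers of the colon list were found in every group, with sums from 2766 to 18570.3 CPM. 3 libraries stood apart. STD day 43 replicate 1 had an RNA integrity number of 2.6, against 6.8 to 10 in the others. GW3965 day 70 replicate 1 held 21811 CPM summed over 8 skeletal muscle markers, against 9.36 to 774 CPM in the others. GW3965 day 70 replicate 2 held 5.05 CPM over 8 stratified epithelium markers, against 3256 to 4533 CPM in the STD libraries of that day. In bulk samples, fewer cells of a type and less RNA per cell cannot be told apart, and P values measure only the spread among these libraries.

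Collagens are secreted or membrane-anchored proteins built as trimers of alpha chains, each chain from its own gene. Fibrillar collagens, chiefly types I and III, give the submucosa and lamina propria their tensile strength and are made mostly by fibroblasts. Type IV forms the sheet-like network of basement membranes under epithelium and around vessels, nerve and smooth muscle, type VI forms beaded filaments between basement membranes and fibrils, and FACIT collagens decorate fibrils. Types VII and XVII anchor stratified epithelium to its basement membrane and are best known from skin and other stratified epithelia.

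Fibrillar genes made up most collagen transcripts. Over the 26 libraries the 11 fibrillar genes held 61.9% of collagen TPM, the 6 type VI genes 12.6%, the 6 type IV genes 10.7%, the 9 FACIT genes 6.34% and the 2 multiplexin genes 5.14%. The other 10 genes together held the rest, and transmembrane collagens were the largest of those classes with 1.52%. *Col3a1* (ENSMUSG00000026043.18, chromosome 1, 45311538 to 45349706), the chain of type III collagen, alone held 39.3% of collagen TPM, with a mean level of 199.8 TPM. Next came the type I chains *Col1a2* (ENSMUSG00000029661.16, chromosome 6, 4504814 to 4541544; mean 53.96 TPM) and *Col1a1* (ENSMUSG00000001506.10, chromosome 11, 94936224 to 94953042; 37.8 TPM), then *Col4a1* (ENSMUSG00000031502.11, chromosome 8, 11198423 to 11312826; 31.6 TPM), *Col6a1* (ENSMUSG00000001119.7, chromosome 10, 76708792 to 76726168; 27.7 TPM) and *Col6a2* (22.9 TPM). The 20 genes of lowest level each had a mean below 1.58 TPM.

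The sum over all collagen genes was 429.7 ± 101 TPM (SD, n = 4) in STD day 0 libraries and 419 ± 96.3 TPM (SD, n = 4) in GW3965 day 0 libraries. At day 22 it was 753 ± 271 TPM on STD and 289.8 ± 80.7 TPM on GW3965 (SD, n = 3 each). The 3 STD values at day 22 ran from 444 to 952 TPM and all lay above the GW3965 range of 199 to 353 TPM. At day 43 the STD range of 387 to 574 TPM again lay above the GW3965 range of 197 to 302 TPM. At day 70 the ranges overlapped, 483 to 906 TPM on STD and 661 to 1089 TPM on GW3965. The fibrillar share of collagen TPM was 53.8% at STD day 0 and 72.4% at STD day 43, and 53.4% and 66.2% on GW3965, while the type IV share was 12.5% and 4.27% on STD and 12.2% and 6.58% on GW3965. The RNA integrity numbers of day 43 ran from 2.6 to 9.3, against 10 in all day 0 libraries, and the ribosomal percentage was also higher at day 43. Their part in these shares was not tested.

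**Figure D1:**
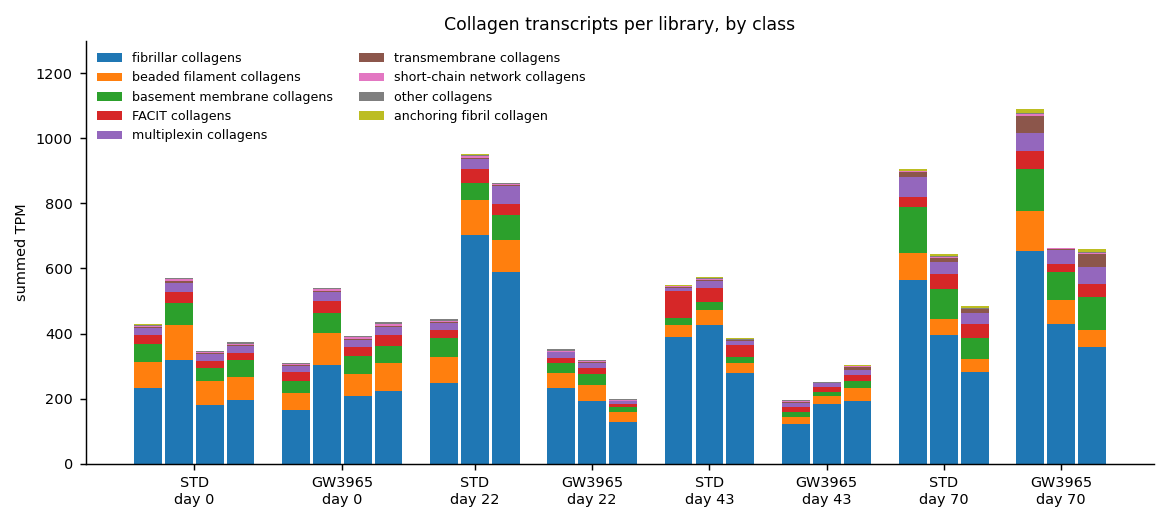
Summed TPM (y axis) of the 44 collagen genes in each of the 26 libraries (bars), coloured by class and grouped by diet and day. STD bars at day 22 reach 952 TPM and GW3965 bars at day 22 no more than 353 TPM.

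Upstream sequence is shown for 5 genes on which the results turn: the type I and III chains *Col1a2* and *Col3a1*, the X-linked pair *Col4a5* and *Col4a6*, which are transcribed away from each other from starts 1309 bases apart, and *Col17a1*. The sequences are from RefSeq (build GRCm38.p6), 5′ to 3′ on the gene's strand, and are stretches before the RefSeq start that no exon of the Ensembl annotation covers. The *Col1a2* stretch lies inside the gene's Ensembl span, in an intron of a transcript that starts further upstream. Capitals mark a TATA box (TATAAA), a GC box (GGGCGG) or the SMAD element CAGACA on either strand. *Col1a2* lies at chr6:4505370-4505492 (+ strand), *Col3a1* at chr1:45311388-45311537 (+ strand), *Col4a5* at chrX:141475235-141475384 (+ strand), *Col4a6* at chrX:141474077-141474226 (- strand) and *Col17a1* at chr19:47692095-47692244 (- strand).
Col1a2: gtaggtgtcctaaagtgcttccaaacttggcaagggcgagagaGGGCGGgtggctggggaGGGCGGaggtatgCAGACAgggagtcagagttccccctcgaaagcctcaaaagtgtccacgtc
Col3a1: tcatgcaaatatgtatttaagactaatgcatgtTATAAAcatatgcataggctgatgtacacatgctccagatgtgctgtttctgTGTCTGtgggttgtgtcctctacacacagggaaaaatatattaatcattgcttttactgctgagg
Col4a5: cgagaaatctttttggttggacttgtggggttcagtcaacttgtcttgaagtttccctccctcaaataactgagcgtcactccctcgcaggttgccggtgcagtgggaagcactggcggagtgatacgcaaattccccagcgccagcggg
Col4a6: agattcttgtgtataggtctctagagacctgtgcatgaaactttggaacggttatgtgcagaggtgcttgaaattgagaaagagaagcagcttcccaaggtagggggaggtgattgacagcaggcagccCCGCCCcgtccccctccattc
Col17a1: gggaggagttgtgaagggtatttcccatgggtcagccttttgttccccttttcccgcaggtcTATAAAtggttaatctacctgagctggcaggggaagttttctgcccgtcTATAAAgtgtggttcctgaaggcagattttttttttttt
The letters were searched on both strands in windows of 300 bases (250 before to 50 after the start) for 35 of the 44 genes, in 38 windows. GGGCGG stood in 23 of 38 collagen windows (60.5%) and in 35.7% of all 32851 windows. TATAAA stood in 5 (13.2%, against 13.6% of all), CCAAT in 13 (34.2%, against 37.4%) and CAGACA in 9 (23.7%, against 21.04%). The AP-1 letters TGACTCA stood in 1 window, of *Col6a1*. A perfect DR4 repeat (AGGTCA, 4 bases of any kind and AGGTCA again), the kind of letters LXR is known to bind, was in none of the 38 windows and in 5 of all windows, which says only that these letters are not there.

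In untreated colon, no collagen gene passed the test between the diets. edgeR called 0 of 40 collagen genes between GW3965 and STD at day 0, where 0.0293% of all genes were called. Of the 40, 0 had an unadjusted P below 0.05, beside 331 of 17063 genes. DESeq2 also called 0. The median log2 fold change was -0.16, beside -0.02 over all genes, and the values ran from -0.70 to 0.90. *Col3a1* had 542, 786, 403 and 448 CPM in the 4 STD libraries and 379, 582, 444 and 466 CPM in the 4 GW3965 libraries. Those ranges overlapped, as did those of 39 of the 40 genes tested. The exception was *Col17a1*, with 0.330, 0.378, 0.298 and 0.248 CPM on STD and 0.540, 0.476, 0.530 and 0.696 CPM on GW3965, and 1.3% of all genes lay wholly above STD in this way.

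At day 22, 8 collagen genes rose on the standard diet and none fell. edgeR's quasi-likelihood test called 8 of 40 higher than at STD day 0, a share to be read against 6.19% of all genes called higher. The fibrillar genes *Col3a1*, *Col1a1* and *Col11a2* were among them, as were the type VI chains *Col6a4* and *Col6a5*, the FACIT *Col12a1*, *Col18a1*, whose C-terminal fragment is endostatin, and *Col7a1*. The median log2 fold change over the 40 was 0.61, beside -0.00105 over all genes.

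*Col6a5* (ENSMUSG00000091345.9, chromosome 9, 105856078 to 105960643) had 0.377, 0.803, 0.170 and 0.396 CPM at STD day 0 and 2.74, 8.20 and 4.03 CPM at STD day 22. Every day 22 library lay above every control (log2 fold change 3.27, standard error 0.597, adjusted P = 0.00287, edgeR). *Col6a4* (ENSMUSG00000032572.9, chromosome 9, 105989454 to 106096783) likewise did not overlap, with 1.79, 2.22, 4.30 and 3.96 CPM at day 0 and 10.1, 8.76 and 12.6 CPM at day 22 (log2 fold change 1.72, standard error 0.401, adjusted P = 0.0121, edgeR). *Col18a1* (ENSMUSG00000001435.15, chromosome 10, 77052178 to 77166548) had 47.4, 70.3, 49.8 and 46.1 CPM and then 63.8, 103 and 178 CPM, so replicate 1 of day 22 lay inside the control range while replicates 2 and 3 lay above it (log2 fold change 1.26, standard error 0.303, adjusted P = 0.014, edgeR). *Col3a1* had 648, 2084 and 1520.4 CPM at STD day 22 against the day 0 values above, and replicate 1 again lay among the controls (log2 fold change 1.21, standard error 0.360, adjusted P = 0.0441, edgeR). *Col1a1* (1.55), *Col11a2* (1.99), *Col12a1* (1.21) and *Col7a1* (2.64), with log2 fold changes in parentheses, had adjusted P values of 0.0459, 0.0294, 0.0325 and 0.0358 (edgeR). The calls of *Col3a1* and *Col1a1* were lost under RLE scaling, without the filter on low counts and without the control of conflicting labels. That of *Col1a1* was also lost without the ribosomal term. The count of 8 dropped to 1 without day 22 replicate 3 and to 3 without day 22 replicate 2. It was 3 without control replicate 1 of 22 diet days, 4 without control replicate 1 of 43 diet days and 3 without control replicate 2 of 43 diet days. Against only the controls of the same 22 diet days it was 2. Without the low-RIN and the muscle-rich library 12 rose and 1, *Col4a6*, fell, where 1713 of 17319 genes were called higher and 902 lower. *Col4a6* was also called lower by DESeq2, without the ribosomal term and in the fit of only the groups compared. Of 3 mesothelial markers tested, *Msln* (3.51) and *Upk3b* (7.56) rose at the same day on STD and *Krt19* (-0.60), which epithelium also makes, did not pass the test, while the sum of the 5 listed was 1189 to 2795 CPM at day 0 and 1058 to 1438 CPM at day 22. Of 8 immune markers 4 rose, with sums of 101 to 197 and 320.4 to 644 CPM. The part of these cells in the collagen rise was not tested.

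On the GW3965 diet, day 22 brought 1 rise and 1 fall. *Col11a2*, a minor fibrillar chain (ENSMUSG00000024330.17, chromosome 17, 34039437 to 34066685), had 0.0983, 0.779, 0.265 and 0.497 CPM at GW3965 day 0 and 1.55, 1.66 and 1.86 CPM at day 22. All 3 day 22 values lay above all 4 controls (log2 fold change 2.00, standard error 0.569, adjusted P = 0.0249, edgeR), and 9.13% of all genes were called higher. *Col16a1*, the FACIT gene of highest level (ENSMUSG00000040690.15, chromosome 4, 130047840 to 130099283), had 33.1, 42.1, 36.2 and 40.5 CPM at day 0 and 16.6, 21.03 and 10.5 CPM at day 22. It lay lower in every day 22 library (log2 fold change -1.15, standard error 0.254, adjusted P = 0.00528, edgeR), and 3.46% of all genes were called lower. The median over the 40 genes was -0.25, and 27 of 40 had a negative fold change. Without single libraries the *Col11a2* call was lost in 5 of 7 fits (day 22 replicates 1 and 2, control replicate 1 of 22 diet days, and both controls of 43 diet days), with adjusted P up to 0.0834 (edgeR), while *Col16a1* was called in all 7.

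Set side by side at day 22, collagen genes were lower on GW3965 than on STD in 39 of 40 cases, with a median log2 fold change of -0.91, beside -0.01 over all genes. In 20 of 40 genes every GW3965 library lay below every STD library, which holds for 11.5% of all genes. By class, that was 7 of 10 fibrillar genes (median -1.29), 4 of 5 type VI genes (-1.05), both multiplexins (-1.17), 3 of 6 type IV genes (-0.49), 2 of 8 FACIT genes (-0.54), *Col7a1* and 1 of 2 genes outside these classes. None of the 4 transmembrane or 2 short-chain genes was apart. edgeR called 2 of 40 lower, *Col4a1* and *Col12a1*, where 0.0469% of all genes were called lower. Of the 40, 18 had an unadjusted P below 0.05, beside 1700 of 17063 genes.

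*Col4a1*, a chain of the widespread type IV network, had 213, 205 and 272 CPM on STD and 109.8, 112 and 69.995 CPM on GW3965. Every STD library lay above every GW3965 library (log2 fold change -1.19, standard error 0.232, adjusted P = 0.0391, edgeR). *Col12a1* (ENSMUSG00000032332.17, chromosome 9, 79598991 to 79718831), a FACIT found on type I fibrils, had 24.99, 52.8 and 67.8 CPM on STD and 14.1, 15.3 and 11.9 CPM on GW3965. STD replicate 1 was the lowest of its group and still above all GW3965 libraries (log2 fold change -1.84, standard error 0.363, adjusted P = 0.044, edgeR). *Col6a1*, the type VI gene of highest level, had 128, 158 and 143 CPM on STD and 79.8, 86.2 and 65.6 CPM on GW3965. Its groups did not overlap either, and it did not pass the test (log2 fold change -0.82, standard error 0.340, adjusted P = 0.405, edgeR). *Col16a1* had 30.2, 38.01 and 32.6 CPM on STD against the GW3965 values above, also without overlap (log2 fold change -1.05, standard error 0.255, adjusted P = 0.125, edgeR). The call of *Col4a1* was lost without any 1 of the 6 libraries (adjusted P 0.0547 to 0.338) and that of *Col12a1* without any but STD replicate 1. DESeq2 called 9 lower, and without the low-RIN STD day 43 library and the muscle-rich GW3965 day 70 library, left out together after their values were seen, edgeR called 10, where 80 of 17319 genes were called lower. Without the control of conflicting labels, without the ribosomal term or under RLE scaling it called 0. The fit of only the groups compared called neither gene, and without the filter on low counts *Col12a1* alone was called.

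Whether the diet difference of day 22 exceeded that of day 0 was tested directly. edgeR called 0 of 40 collagen genes for that change, where 0.0234% of all genes were called. The median was -0.82, and 34 of 40 values were negative. Of the 40, 10 had an unadjusted P below 0.05, beside 1065 of 17063 genes. DESeq2 called 1, *Col12a1*. Beside these collagens, the 10 fibroblast markers were lower on GW3965 at day 22 in 10 of 10 cases, with a median of -0.64 and 0 called (edgeR; 5 at an unadjusted P below 0.05). Their summed level was 458 to 864 CPM on STD and 413 to 462 CPM on GW3965. No fibroblast marker was at 0 in any group. The 8 smooth muscle markers summed to 5320.1 to 12161 CPM on STD and 8781 to 10597 CPM on GW3965. The 7 endothelial markers lay below STD in 7 of 7 cases without overlap (median -0.63, 0 called by edgeR, 4 at an unadjusted P below 0.05), with sums of 294 to 336 CPM on STD and 151 to 221 CPM on GW3965 and none at 0. The part of cell composition in the collagen difference was not tested.

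**Figure D2:**
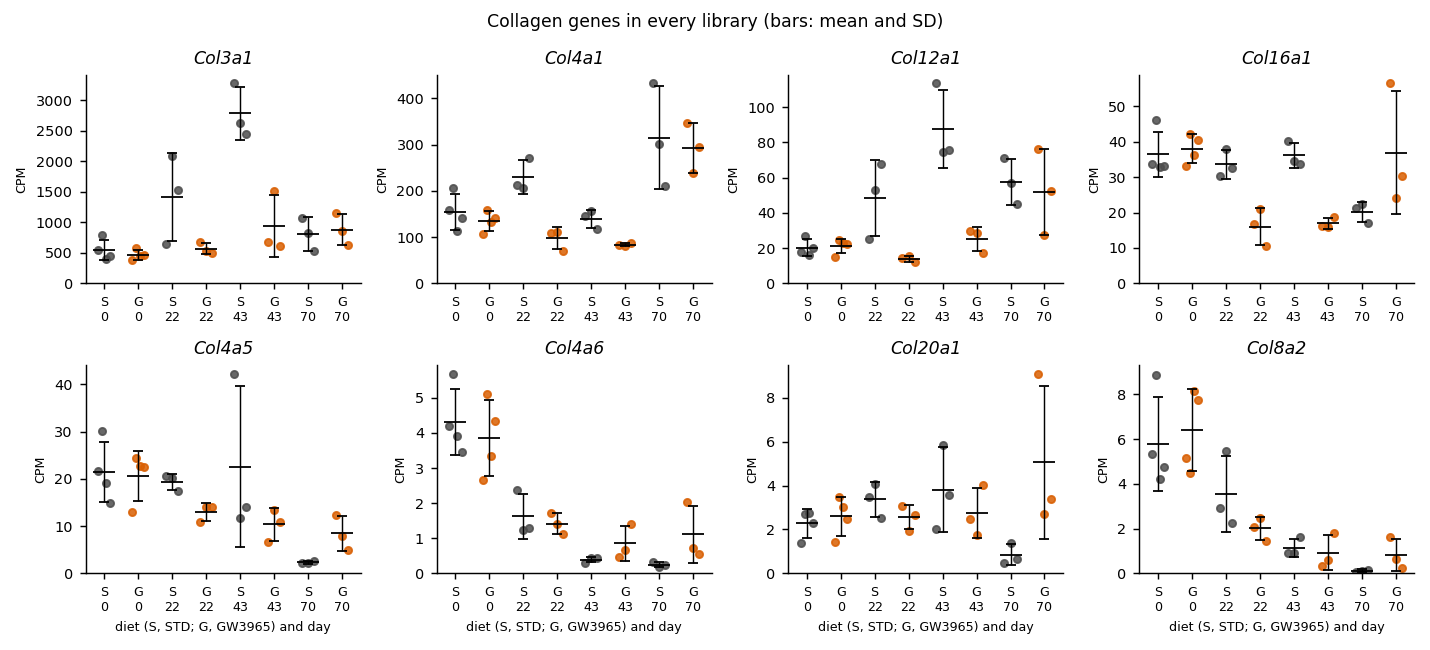
CPM (y axis) of 8 collagen genes in every library (points; grey, STD; orange, GW3965) by diet and day, with mean and SD as bars (n = 4 at day 0, n = 3 otherwise). At day 22 the GW3965 points of Col4a1 (at most 112 CPM) lie under the STD points (at least 205 CPM), and at day 70 the STD points of Col4a5 lie at 2.21 to 2.66 CPM.

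Day 43 could be read less firmly, because the ribosomal percentage moved with the day. It ran from 14.4% to 18.6% at STD day 43 and from 10.02% to 17.6% at GW3965 day 43, against 3.96% to 10.7% on the other days. With that term in the model, edgeR called 0 of 40 collagen genes at STD day 43 against day 0 (0% of all genes). Of the 40, 6 had an unadjusted P below 0.05, beside 1369 of 17063 genes, and DESeq2 called 1, *Col17a1*. Without the term edgeR called 11 higher and 7 lower, where 30.8% of all genes were called higher and 24.2% lower. *Col3a1* had 3274, 2622 and 2449 CPM at STD day 43, all far above the highest day 0 control of 786 CPM, while the model with the ribosomal term gave 1.42 on the log2 scale (standard error 0.716, adjusted P = 0.654, edgeR). The level and the covariate cannot be told apart at this day.

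At GW3965 day 43, 1 collagen gene rose. *Col17a1* (ENSMUSG00000025064.15, chromosome 19, 47646344 to 47692094), a membrane-spanning collagen of hemidesmosomes, had 0.540, 0.476, 0.530 and 0.696 CPM at day 0 and 22.1, 1.89 and 30.3 CPM at day 43. Replicate 2 was the lowest by far and still above every control (log2 fold change 6.73, standard error 1.25, adjusted P = 0.0105, edgeR), and 0.897% of all genes were called higher. Without replicate 3 the call was lost (log2 fold change 6.45, adjusted P = 0.147, edgeR), and against the controls of 43 diet days adjusted P was 0.0983. Without the ribosomal term 5 rose and 12 fell, where 26% of all genes were called higher and 19.3% lower.

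Between diets at day 43, 36 of 40 collagen genes were lower on GW3965, with a median log2 fold change of -0.93, beside -0.03 over all genes. Of the 40, 11 did not overlap and lay below STD, against 4.2% of all genes. edgeR called 0 of 40, where 0.0293% of all genes were called in either direction. An unadjusted P below 0.05 was seen for 14, beside 1476 of 17063 genes, and DESeq2 called 2 lower, *Col12a1* and *Col16a1*. Without STD replicate 2 edgeR called 1 lower, where 223 of 17437 genes were called lower. *Col12a1* had 113, 74.4 and 75.4 CPM on STD and 29.7, 28.5 and 17.3 CPM on GW3965, with no overlap (log2 fold change -1.71, standard error 0.395, adjusted P = 0.283, edgeR). *Col16a1* had 40.1, 34.6 and 33.8 CPM on STD and 16.3, 15.9 and 18.8 CPM on GW3965, again apart (log2 fold change -1.25, standard error 0.286, adjusted P = 0.283, edgeR). *Col8a1* (ENSMUSG00000068196.5, chromosome 16, 57624258 to 57754737), a short-chain collagen of vessel walls, had 30.6, 16.005 and 14.04 CPM on STD and 5.35, 9.20 and 8.18 CPM on GW3965, with the low-RIN library the highest (log2 fold change -1.33, standard error 0.457, adjusted P = 0.494, edgeR). The change of the diet difference from day 0 was called for 0 of 40 genes by edgeR (0% of all genes) and by DESeq2, with a median of -0.76. Of the 40, 5 had an unadjusted P below 0.05 (edgeR), beside 746 of 17063 genes. Fibroblast markers summed to 722 to 1118 CPM on STD and 481 to 751 CPM on GW3965 at day 43.

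By day 70, collagen genes moved in both directions. On STD, 9 of 40 rose and 8 fell against day 0 (edgeR), where 18.1% of all genes were called higher and 15.1% lower. On GW3965, 15 rose and 3 fell, where 14.4% and 7.43% of all genes were called. Both STD counts and the GW3965 falls lie near these shares of all genes, and the 15 rises lie above theirs. The medians over the 40 genes were 0.11 and 0.60, beside 0.03 and 0.10 over all genes. The GW3965 median was 0.25 without the muscle-rich replicate 1 and 0.27 without that and the low-RIN library, and the STD median ran from 0.00722 without replicate 2 to 0.26 when 1 library was left out. 12 genes were called in both diets, and each moved the same way in both: *Col1a1*, *Col5a3*, *Col4a1*, *Col4a2*, *Col18a1*, *Col12a1*, *Col9a3*, *Col17a1* and *Col7a1* rose, and *Col4a5*, *Col4a6* and *Col8a2* fell. Of all 17063 genes, 2391 (14%) were called in both diets, and 2380 of them (13.9% of all) moved the same way, 8.81% higher and 5.13% lower. Agreement in direction was thus the rule among all genes called in both diets. Each diet had its own controls. Without STD day 70 replicate 1 the STD counts were 5 higher and 5 lower, where 2317 and 1848 of 17491 genes were called.

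Of the fibrillar genes, *Col1a1* rose in both diets with log2 fold changes of 1.5 on STD (standard error 0.443, adjusted P = 0.0135) and 1.54 on GW3965 (standard error 0.458, adjusted P = 0.0211, both edgeR). *Col3a1* had 1073, 819 and 531 CPM at STD day 70 and 1145, 855 and 634 CPM at GW3965 day 70. It passed the test on GW3965, where all 3 libraries lay above all 4 controls (log2 fold change 1.06, standard error 0.356, adjusted P = 0.0389), and on STD, where replicate 3 lay inside the control range, it did not (log2 fold change 0.58, standard error 0.342, adjusted P = 0.206, edgeR). *Col1a2* (log2 fold change 1.03), *Col5a2* (1.24), a chain of the type V collagen that starts fibrils, and *Col11a2* (2.01) were called only on GW3965, and their fold changes on STD were 0.62, 0.72 and 0.65. The test of the difference between diets in the change from day 0 called none of them. The *Col3a1* call on GW3965 was lost without the ribosomal term, without the filter on low counts, in the fit of only the groups compared, without the control of conflicting labels and without the libraries that stood apart. That of *Col1a2* was lost in the last 4 of these and under RLE scaling. The 10 fibroblast markers summed to 402 to 765 CPM at STD day 0 and 235 to 334 CPM at STD day 70, and to 379 to 517 and 302 to 633 CPM on GW3965. Of the 10, 1 rose and 4 fell on STD and 1 rose and 1 fell on GW3965 (edgeR), and their part in the fibrillar changes was not tested.

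The type IV family split by chain. *Col4a1* had 433, 301 and 211 CPM at STD day 70 and 346, 238 and 296 CPM at GW3965 day 70, and all 6 lay above the controls of their own diet. Its log2 fold change was 1.02 on STD (adjusted P = 0.00138) and 1.01 on GW3965 (adjusted P = 0.00308, edgeR), and its partner chain *Col4a2*, which starts 21 bases away on the other strand, gave 0.87 and 0.93. Their first exons overlap, and whether the reads were counted by strand is not given in the sources used here. The X-linked chains went the other way. *Col4a5* (ENSMUSG00000031274.16, chromosome X, 141475385 to 141689234) had 21.8, 30.1, 19.1 and 15.01 CPM at STD day 0 and 2.21, 2.22 and 2.66 CPM at STD day 70. No day 70 library came near the lowest control (log2 fold change -3.19, standard error 0.431, adjusted P = 6.52e-05, edgeR). *Col4a6* (ENSMUSG00000031273.16, chromosome X, 141165403 to 141474076), which pairs with that chain in smooth muscle basement membrane, had 4.19, 5.67, 3.91 and 3.47 CPM at STD day 0 and 0.315, 0.174 and 0.254 CPM at STD day 70 (log2 fold change -4.09, standard error 0.469, adjusted P = 2.33e-05, edgeR). On GW3965 the falls were -1.21 for *Col4a5* (adjusted P = 0.0375) and -2.06 for *Col4a6* (adjusted P = 0.00204, edgeR), with 12.9, 24.4, 22.6 and 22.4 CPM and 2.65, 5.11, 3.35 and 4.32 CPM at its day 0. The GW3965 call of *Col4a5* was lost without the control of conflicting labels, that of *Col4a2* without that control, without the filter on low counts and under RLE scaling, and the STD call of *Col4a2* without the filter and without the ribosomal term. *Col4a3* and *Col4a4*, chains best known from kidney, stayed uncalled in all 13 comparisons, with means of 0.218 and 0.0550 TPM.

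*Col8a2* (ENSMUSG00000056174.8, chromosome 4, 126286793 to 126314330), a short-chain network collagen, had 5.32, 8.88, 4.21 and 4.75 CPM at STD day 0 and 0.0526, 0.131 and 0.169 CPM at STD day 70 (log2 fold change -5.5, standard error 0.715, adjusted P = 5.26e-05, edgeR). On GW3965 it had 5.16, 4.50, 8.16 and 7.75 CPM at day 0 and 1.64, 0.626 and 0.247 CPM at day 70 (log2 fold change -3.10, standard error 0.618, adjusted P = 0.0017, edgeR). All 6 day 70 libraries lay below all 8 controls. On STD, *Col14a1* (-1.49), *Col16a1* (-0.85), *Col20a1* (-1.38), *Col25a1* (-1.97) and *Col28a1* (-2.09) also fell, with log2 fold changes in parentheses. The fall of *Col16a1* held in CPM only, with 21.2, 22.4 and 16.9 CPM at STD day 70 and at least 32.8 CPM at STD day 0. By TPM it had 10.2, 13.98, 10.4 and 10.6 at STD day 0 and 7.36, 15.3 and 13.7 at STD day 70, which overlapped. The source of that difference was not tested. *Col28a1* (ENSMUSG00000068794.7, chromosome 6, 7997808 to 8192617), a collagen known from peripheral nerve, had 5.70, 11.4, 3.9999 and 4.21 CPM at STD day 0 and 1.47, 1.83 and 1.06 CPM at STD day 70, with no overlap (adjusted P = 0.000737, edgeR). On GW3965 it had 3.68, 6.19, 4.55 and 6.21 CPM and 7.27, 3.13 and 2.51 CPM, which overlapped (log2 fold change -0.61, standard error 0.386, adjusted P = 0.278, edgeR).

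Smooth muscle markers moved with these falls. All 8 fell at STD day 70 (median -2.56) and 2 of 8 at GW3965 day 70 (-1.23, edgeR). Their sum was 8636 to 25138 CPM at STD day 0, 1684 to 3722 CPM at STD day 70, 5795 to 15002 CPM at GW3965 day 0 and 2966 to 7760.1 CPM at GW3965 day 70, and no marker was at 0. Of 8 markers of enteric glia and neurons, 7 fell on STD (median -2.70) and 4 on GW3965 (-1.21). Their part in the collagen changes was not tested.

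*Col17a1*, *Col7a1* and *Col9a3* had the largest called rises of the 40 genes in both diets. *Col17a1* had 0.330, 0.378, 0.298 and 0.248 CPM at STD day 0 and 55.04, 34.4 and 33.7 CPM at STD day 70 (log2 fold change 7.01, standard error 0.989, adjusted P = 8.66e-05, edgeR). At GW3965 day 70 it had 182, 2.28 and 149 CPM (log2 fold change 7.22, standard error 0.978, adjusted P = 8.54e-05, edgeR). Replicate 2 was the lowest of the 6 day 70 libraries by a wide margin and lay above every day 0 library. *Col7a1* (ENSMUSG00000025650.13, chromosome 9, 108953586 to 108984875), the anchoring fibril collagen, had 0.424, 0.519, 0.596 and 0.347 CPM at STD day 0, 27.4, 11.9 and 15.5 CPM at STD day 70, 0.295, 0.260, 0.618 and 0.149 CPM at GW3965 day 0 and 29.3, 1.22 and 36.3 CPM at GW3965 day 70. The same replicate was low, and the rise passed the test in both diets (log2 fold changes 5.25 and 6.03, adjusted P = 0.00011 and 8.1e-05, edgeR). Without that replicate the log2 fold changes were 7.75 for *Col17a1* and 6.54 for *Col7a1*. *Col9a3*, a chain of the cartilage FACIT type IX, had 0.141, 0.236, 0.0851 and 0.198 CPM at STD day 0 and 4.57, 12.9 and 13.7 CPM at STD day 70, and 0.197, 0.173, 0.177 and 0.0994 and 0.717, 1.51 and 4.31 CPM on GW3965. No day 70 library overlapped its controls (log2 fold changes 5.88 and 3.82, adjusted P = 7.79e-05 and 0.00221, edgeR), and *Col9a3* is named here after its values were seen. The 8 stratified epithelium markers summed to 2.68 to 3.91 CPM at STD day 0, 488 to 1728 CPM at STD day 43 and 3256 to 4533 CPM at STD day 70. At GW3965 they summed to 2.34 to 2.997 CPM at day 0, 164 to 4011 CPM at day 43, and 18330.2, 5.05 and 13314 CPM in the day 70 replicates. *Krt6a* and *Sprr3* were at 0 in all day 0 libraries, and all 8 markers rose at day 70 in both diets (edgeR). The part of stratified epithelium in the rise of *Col17a1* and *Col7a1* was not tested.

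**Figure D3:**
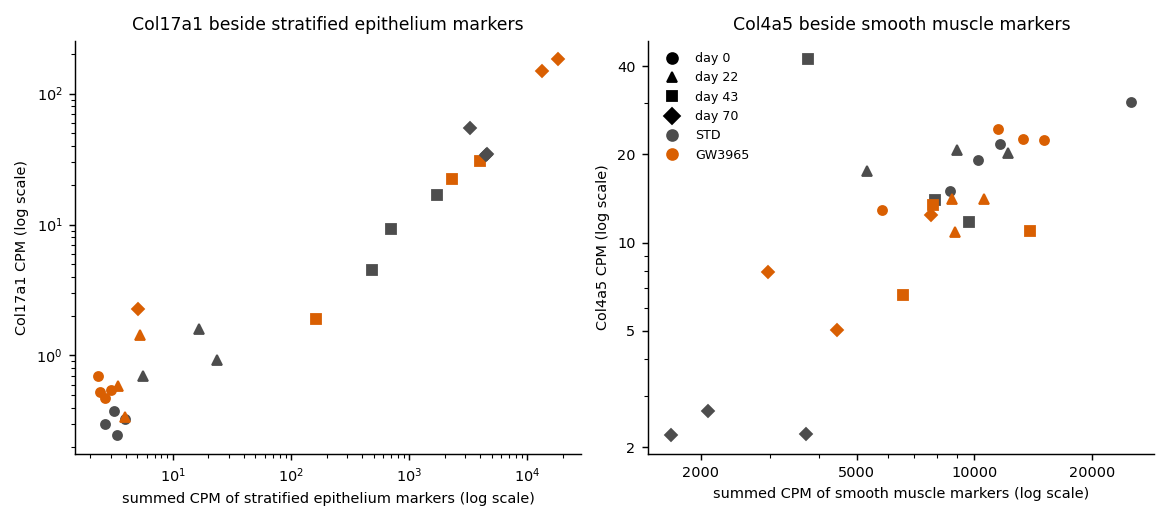
Left, Col17a1 CPM against the summed CPM of 8 stratified epithelium markers; right, Col4a5 CPM against the summed CPM of 8 smooth muscle markers. Each point is a library (shape, day; grey, STD; orange, GW3965) and all axes are logarithmic; libraries with high Col17a1 (182 CPM at most) hold the most stratified epithelium markers, and STD day 70 libraries have the lowest Col4a5.

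Between diets at day 70, 3 of 40 collagen genes were called higher on GW3965 and none lower, where 1.75% of all genes were called higher (edgeR). *Col20a1* (ENSMUSG00000016356.18, chromosome 2, 180986535 to 181018363), a FACIT, had 0.473, 1.39 and 0.676 CPM on STD and 9.06, 2.73 and 3.39 CPM on GW3965 (log2 fold change 2.40, standard error 0.539, adjusted P = 0.0314). *Col4a5* had 12.4, 7.96 and 5.05 CPM on GW3965 against the STD values above (log2 fold change 1.91, standard error 0.440, adjusted P = 0.0354), and *Col4a6* had 2.05, 0.737 and 0.565 CPM (log2 fold change 1.90, standard error 0.474, adjusted P = 0.0455, edgeR). In all of these the groups did not overlap, and GW3965 replicate 1, the library rich in skeletal muscle markers, was the highest. Of the 40 genes, 8 lay wholly above STD, against 10.5% of all genes. The median was 0.29, and without the muscle-rich library and the low-RIN library of day 43 it was -0.03, with 1 gene called, *Col4a5*. The calls were lost for all 3 genes without GW3965 replicate 1 (0 called), STD replicate 1 (0) or STD replicate 3 (0), fell to 1 without STD replicate 2, and became 6 higher and 1 lower without GW3965 replicate 3. In that last fit 1117 of 17454 genes were called higher and 347 lower, against 298 and 14 of 17063 in the main fit. The fit of only the groups compared called none (7 at an unadjusted P below 0.05, beside 1873 of 15477 genes). *Col4a6* was not called without the filter on low counts or without the control of conflicting labels. The diet difference of day 70 against that of day 0 was called for 0 of 40 genes (0% of all genes, edgeR), with a median of 0.51. Of the 40, 6 had an unadjusted P below 0.05, beside 2169 of 17063 genes, and DESeq2 called 1, *Col4a5*. Without GW3965 day 70 replicate 3 edgeR called 2, where 418 of 17454 genes were called.

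*Col22a1*, a FACIT known from muscle-tendon junctions, passed the test against day 0 on GW3965 (log2 fold change 2.35, adjusted P = 0.00567, edgeR) and is named after its values were seen. It had 0.295, 0.433, 0.309 and 0.0994 CPM at GW3965 day 0 and 2.05, 1.47 and 0.777 CPM at GW3965 day 70, highest in the muscle-rich replicate 1, and all 3 lay above the controls. On STD it had 0.631, 0.566 and 0.719 CPM at day 70. *Col6a6*, a type VI chain under the filter, was also highest in that library, at 1.74 CPM. Of 8 skeletal muscle markers, 7 rose on GW3965 and 3 on STD at day 70 (edgeR), with sums of 11.9 to 21811 CPM and 9.36 to 774 CPM, and their part in these levels was not tested.

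Markers of several cell types were set side by side between the diets at day 70. Of 8 smooth muscle markers 8 were higher on GW3965 (median 0.92, 0 called by edgeR, 1 at an unadjusted P below 0.05), and of 8 enteric glia and neuron markers 7 were higher and 3 were called (median 1.70). Skeletal muscle markers had a median of 3.86 with 0 called and 2 at an unadjusted P below 0.05. Of all 17063 genes, 3204 had such a P between diets at that day (edgeR). Adipocyte markers, of which 6 of 6 fell at STD day 70 (median -6.23), summed to 5.22 to 12.3 CPM on STD and 7.70 to 99.6 CPM on GW3965. Their part in the diet difference was not tested.

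**Figure D4:**
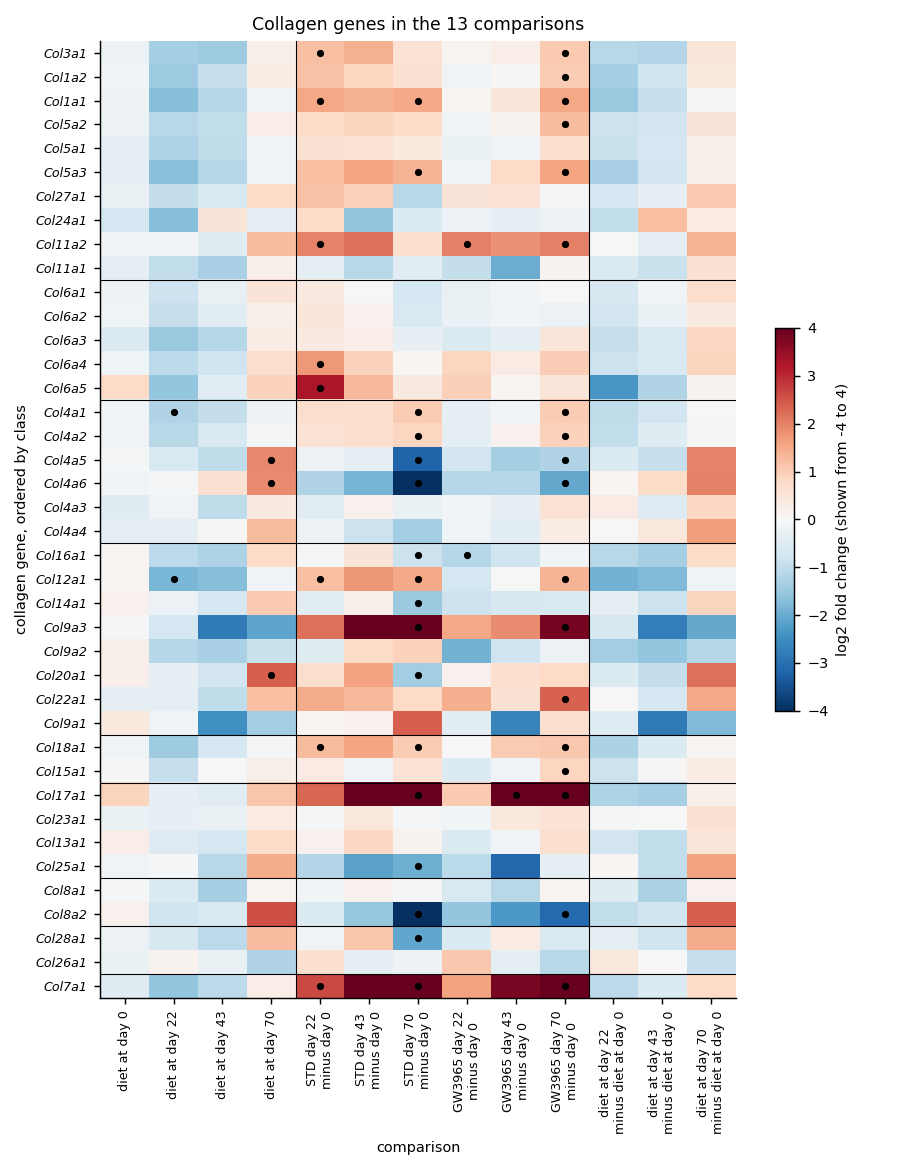
Log2 fold changes (colour, cut at -4 and 4) of the 40 tested collagen genes (rows, by class) in the 13 comparisons (columns); black dots mark genes called by edgeR at an adjusted P below 0.05. The day 22 and day 43 diet columns are mostly blue (39 and 36 of 40 genes lower on GW3965), and the day 70 columns hold the most dots.

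Over the 13 comparisons, 25 of the 40 genes were called at least once and 15 never, where 47.2% of all genes were called at least once. The 15 included *Col6a1*, *Col6a2* and *Col6a3*, the main type VI chains, although *Col6a1* ranked 5 by mean TPM. *Col6a1* had 112, 171, 114 and 104 CPM at STD day 0 and 110.1, 71.3 and 49.5 CPM at STD day 70, and 86.5, 128, 98.6 and 118 and 193, 99.3 and 71.04 CPM on GW3965. Its ranges overlapped in both diets. *Col8a1* had 16.7, 17.7, 9.49 and 13.3 CPM at STD day 0 and 11.4, 20.4 and 9.34 CPM at STD day 70, also overlapping. By group mean, 10 genes were highest at STD day 43, 10 at GW3965 day 70 and 8 at STD day 22, while none was highest at GW3965 days 22 or 43. The lowest mean of 12 genes was at GW3965 day 43 and that of 9 at STD day 70.

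Ratios between collagen chains were examined after their values had been seen, so they are given as a description. Type I collagen combines *Col1a1* and *Col1a2* chains. The ratio of *Col1a1* to *Col1a2* TPM was 0.549 ± 0.0645 at STD day 0 and 0.522 ± 0.0452 at GW3965 day 0 (SD, n = 4 each). At day 22 it was 0.675 ± 0.0119 on STD and 0.540 ± 0.0172 on GW3965, and at day 70 1.05 ± 0.0902 and 0.835 ± 0.173 (SD, n = 3 each). All 6 day 70 ratios, 0.719 and above, exceeded all day 0 and day 22 ratios, of which the highest was 0.682. The ratio of *Col4a1* to *Col4a2* stayed between 1.40 and 1.92 in the 20 libraries of days 0, 22 and 70, and that of *Col6a1* to *Col6a2* between 1.07 and 1.45. For *Col4a5* to *Col4a6* it ran from 4.64 to 20.8 in those 20.

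STD day 43 replicate 1, of RIN 2.6, gave the most extreme of these ratios. *Col4a1* to *Col4a2* was 7.35 there, against at most 2.76 in the other 25 libraries, and *Col4a5* to *Col4a6* was 184, against at most 51.9. *Col4a6* had 0.0398 TPM there, and 0.0439 and 0.0402 TPM in STD day 43 replicates 2 and 3, so its ratios rest on few reads at that day. *Col1a1* to *Col1a2* was 0.169, against at least 0.318, and *Col3a1* to *Col1a2*, genes of separate trimers, was 16.9, against at most 10.7. Those extremes among the other 25 came from GW3965 day 43 replicate 2 (RIN 6.8) for *Col4a1* to *Col4a2* and for *Col1a1* to *Col1a2*, and from STD day 43 replicate 3 (RIN 7.8) for *Col3a1* to *Col1a2*. Against the mean of STD day 43 replicates 2 and 3, 11 of 40 collagen genes were over 2-fold lower in replicate 1 and 6 over 2-fold higher (CPM with 0.5 added). Across these 40 genes, which share 1 library and are not replicates, that log2 ratio and the GC percentage of the gene's main transcript had a Spearman correlation of -0.45 (Pearson -0.35). *Col1a1* (58.9% GC) had a log2 ratio of -2.44 and *Col4a2* (60.6% GC) of -1.80, while *Col3a1* (52.5% GC) had 0.37. *Col9a3* (58.4% GC), at 2.46, went the other way.

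**Figure D5:**
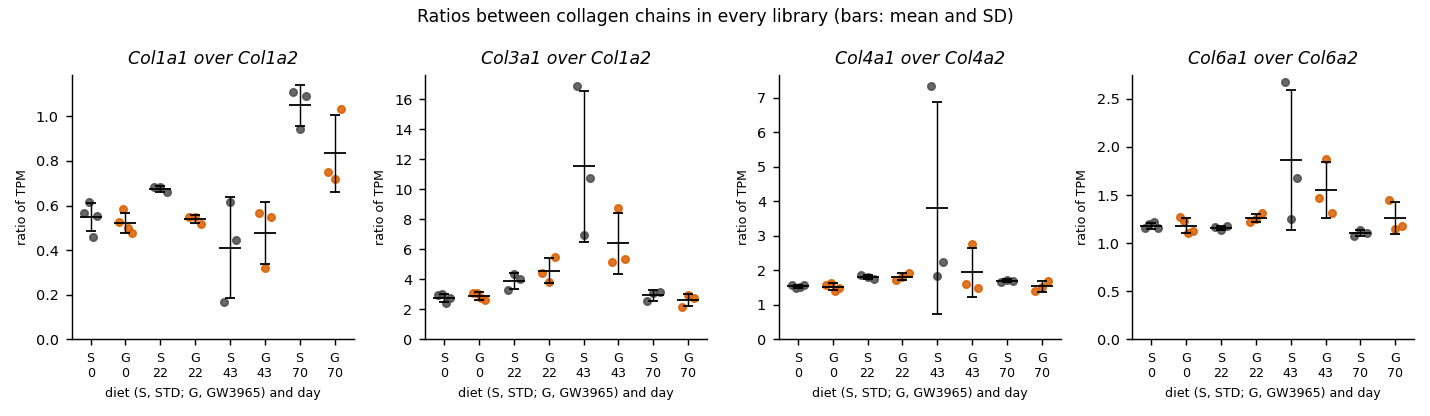
Ratio of TPM (y axis) between 4 pairs of collagen chains in every library (points; grey, STD; orange, GW3965), with mean and SD as bars (n = 4 at day 0, n = 3 otherwise). The STD day 43 library of RIN 2.6 gives the highest Col4a1 to Col4a2 ratio (7.35), and the day 70 libraries the highest Col1a1 to Col1a2 ratios.

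*Col18a1* has an upstream start, used by 1 annotated transcript, and starts further downstream, used by 4, of which the longer ones encode the long forms known from liver. Of its TPM over these 5 transcripts, the upstream start held 69.4% ± 5.97 at STD day 0 and 76.99% ± 5.997 at GW3965 day 0 (SD, n = 4 each). On STD the share was 87.98% ± 2.70 at day 22, 94.6% ± 2.82 on day 43 and 91.1% ± 2.37 by day 70 (SD, n = 3 each). GW3965 libraries had 84.997% ± 5.16, 92.5% ± 2.44 and 89.3% ± 3.09 on the same days (SD, n = 3 each). On STD all 9 treated libraries, at 84.9% or more, lay above the 4 controls, at 77.6% or less. On GW3965 the lowest treated share was 80.1% and the highest control 82.2%. These shares were chosen after their values were seen and were not tested, and transcripts that share exons divide their reads by estimation.

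The genes that modify, cut, link and bind collagen were read from 7 lists with 79 genes tested. On STD, 9 rose at day 22 and none fell, where 6.19% of all genes were called higher, and at day 70, 18 rose and 17 fell, where 18.1% and 15.1% were called. On GW3965, 3 rose at day 22, against 9.13% of all genes, and at day 70, 14 rose and 6 fell, against 14.4% and 7.43% (all edgeR). At day 43, edgeR called 0 in either diet, and DESeq2 called 0 on STD and 1 on GW3965. An unadjusted P below 0.05 (edgeR) was seen for 8 of 79 on STD, beside 1369 of 17063 genes. On GW3965 it was seen for 11 of 79, beside 2324 of 17063. Between diets, 0 of 79 were called at any day by edgeR, although at day 22, 73 of 79 were lower on GW3965 and 33 had an unadjusted P below 0.05. On days 0, 43 and 70 that count was 0, 17 and 21. Over all 17063 genes it was 331, 1700, 1476 and 3204 on days 0, 22, 43 and 70. The change of the diet difference from day 0 was called for 0 of 79 at days 22, 43 and 70 by edgeR and by DESeq2. An unadjusted P below 0.05 (edgeR) was seen for 13, 4 and 13, beside 1065, 746 and 2169 of 17063 genes. In the comparison of diets DESeq2 called 0, 8, 0 and 7 on days 0, 22, 43 and 70.

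Crosslinking was read first from *Lox*, which encodes the lysyl oxidase that joins collagen molecules. It had 9.33, 11.3, 5.40 and 4.80 CPM at STD day 0, 14.8, 71.3 and 56.4 CPM at STD day 22 and 38.8, 46.9 and 26.6 CPM at STD day 70. On GW3965 it had 3.14, 6.32, 5.03 and 5.67 CPM at day 0, 14.9, 6.69 and 9.79 CPM at day 22 and 42.3, 23.4 and 31.01 CPM at day 70. It rose on STD at day 22 (2.43) and at day 70 (2.27), and on GW3965 at day 70 (2.82), with adjusted P values of 0.00256, 0.000555 and 0.000247 (edgeR). Its relative *Loxl2* rose on STD at both days (1.04 and 1.00), and *Loxl3* fell at STD day 70 (-1.06). Of 7 propeptide processing genes, *Bmp1*, which removes the C-propeptide of fibrillar procollagens, rose at STD day 22 (1.15), STD day 70 (0.99) and GW3965 day 70 (1.47).

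Basement membrane partners rose at day 70 in 6 of 15 cases on STD, with 2 falls, and in 5 of 15 on GW3965, with none. Of all genes, 18.1% were called higher and 15.1% lower at STD day 70, and 14.4% and 7.43% at GW3965 day 70. The 2 falls of 15 here, and the 3 rises and 3 falls of 19 given below, lie near these shares. The laminin genes *Lama3* (1.90), *Lamb3* (1.66) and *Lama5* (1.32) were among the STD rises and *Lama1* (1.80), the heparan sulfate proteoglycan *Agrn* (1.31) and *Lama3* (1.5) were among those on GW3965, with log2 fold changes in parentheses. Small leucine-rich proteoglycans, which coat fibrils, fell in 5 of 9 cases at STD day 70 (median -1.69), led by *Omd* (-3.93), *Ogn* (-3.05) and *Aspn* (-2.52), and in 3 of 9 on GW3965 (median 0.04), which were *Ogn* (-1.39), *Aspn* (-1.19) and *Prelp* (-1.17). Of 19 chain modification genes, 3 rose and 3 fell at STD day 70, among them *P4hb* (0.90), a subunit of the prolyl hydroxylase that stabilizes the helix, and the galactosyltransferases *Colgalt2* (-2.26) and *Colgalt1* (0.62), and at GW3965 day 70, *P3h4* (1.55) rose and *P4ha1* (-0.58) fell. Collagen receptors moved apart at STD day 70, where the epithelial *Itga2* (2.32) and *Ddr1* (0.89) rose and 4 fell, led by *Gp6* (-4.37) of platelets and *Ddr2* (-2.57) of mesenchymal cells. Of the TGF-beta axis, *Tgfbi* (1.39) and the ligand *Tgfb1* (1.44) rose at STD day 22. At day 70, *Ltbp2* rose in both diets (2.86 on STD, 3.31 on GW3965), while *Tgfb2* (-1.57) and *Tgfb3* (-1.86) fell on STD.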

How the data were processed

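Bulk RNA-seq of 26 mouse colon samples was analysed in 8 groups of diet and day, taken from the sample titles. The authors quantified reads with Kallisto on GRCm38 (version, annotation release and strand setting not given in the sources used here) and deposited, per transcript, estimated counts, which are not normalized. The deposited TPM values are scaled by the authors' tool for transcript length and to a fixed total in every sample. Here 97.8% of 119414 transcripts were matched to genes and summed to 35975 genes, and counts were rounded. Library totals were 18195345 to 41522204 counts (median 20424702), so low genes carry the most counting error. edgeR 4.0.16 (R 4.3.3, limma 3.58.1) fitted a quasi-likelihood model with TMM scaling, filterByExpr, 8 groups and the centred percentage of counts on 88 ribosomal protein genes, and 13 comparisons were adjusted by Benjamini-Hochberg over 17063 genes at 0.05. That percentage entered as an additive term. The study's model, which crosses diet and time with the percentage of ribosomal RNA, was not fitted. The script was tested on simulated data. Alternatives were DESeq2 1.42.0, RLE scaling, no filter, no covariate, only the groups compared, a replicate block, controls of the same diet days, and leaving out libraries. Overlap between groups was read from CPM. Figures used matplotlib 3.10.9.

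The collagen genes and all lists were chosen with earlier results of these data known. Per-sample values are given for the member of highest mean TPM in each class, up to 3 collagen genes of smallest P per comparison among those called, and those called between diets, with *Col9a3* and *Col22a1* added after their values were seen. Of the other lists, genes were named by smallest P or by role, the latter after their values were seen. Replicate numbers do not pair samples. Promoter sequences came from RefSeq GRCm38.p6 and covered 35 of 44 collagen genes. Results for some partner genes are not reported here.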

Additional observations from a re-analysis of the deposited data

Results flagged for a closer look

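The named collagen genes and the collagen share of counts were examined in 36 groups of 4 libraries. In 4 of these 1 library lay far from the other 3, its gap to the nearest divided by the range being above Dixon's 95% critical value. Chance gives about 1 in 20 such groups if they are independent, and these groups reuse the same libraries. All 4 were STD day 0 groups. *Col16a1* (gap 0.928 of the range) had 32.8, 33.1, 33.7 and 46.1 CPM from lowest to highest, *Col6a1* (0.842) had 104, 112, 114 and 171 CPM and *Col18a1* (0.846) had 46.1, 47.4, 49.8 and 70.3 CPM. In these 3 genes the highest value was that of replicate 2 of 22 diet days. *Col11a2* (0.878) had 0.330, 0.347, 0.378 and 0.723 CPM, and the highest was replicate 1 of 43 diet days.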

How the results depend on the processing

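Counts below are collagen genes called by edgeR unless another tool is named, and no result changed sign past the threshold. The main fit tested 40 of them, DESeq2 and the fit with no filter 44, and the fit with controls of the same diet days 41. Without the ribosomal term, the count between diets was 0 in place of 2 at day 22 and 1 in place of 0 at day 43, STD day 43 gave 18 in place of 0, GW3965 day 22 gave 6 in place of 2 and GW3965 day 43 gave 17 in place of 1. Of the 79 partner genes the same change gave 3 in place of 0 between diets at day 70, 37 in place of 0 at STD day 43, 6 in place of 3 at GW3965 day 22 and 28 in place of 0 at GW3965 day 43. Of all genes it gave 9394 in place of 0 at STD day 43, 3534 in place of 2149 at GW3965 day 22 and 7729 in place of 160 at GW3965 day 43. DESeq2 called 9 between diets at day 22, 2 at day 43, 1 at STD day 43, 5 at GW3965 day 22, 2 at GW3965 day 43 and 1 each for the change of the diet difference at days 22 and 70. Over all genes DESeq2 called 298 in place of 23 between diets at day 22 and 1179 in place of 312 at day 70. Between diets at day 22, RLE normalization gave 0, no filter on low counts 1 and the fit without the control of conflicting labels 0. Fits of only the groups compared gave 1 of 36 between diets at day 22 and 0 of 36 at day 70. They gave 13 of 38 at STD day 43, 19 of 39 at GW3965 day 22 and 19 of 36 at GW3965 day 43. Over all genes these fits called, in the same order, 77 of 15491, 0 of 15477, 6888 of 15842, 7071 of 15522 and 8912 of 15620. The last 3 collagen counts lie near or below those shares. Without the control of conflicting labels GW3965 day 22 gave 1. Controls of the same diet days gave 2 at STD day 22, 1 at GW3965 day 22 and 0 at GW3965 day 43. Without the 2 libraries that stood apart, chosen after seeing the data, the counts were 10 between diets at day 22, 1 at day 70, 13 at STD day 22 and 6 at GW3965 day 22. Over all 17319 genes tested in that fit, 199, 362, 2615 and 3950 were called. The counts differed at day 22 although neither library is of that day, since all groups share the estimate of spread and the ribosomal term.

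Same-numbered libraries of the diets did not deviate together (mean correlation -0.07 over 13 pairs, -0.37 to 0.20), so the numbers do not pair them. With the replicate block the count was 0 between diets at day 22 and 1 at day 70 (*Col20a1*), *Col4a5* was not called at GW3965 day 70, and the other counts stayed within 1.5 times. Leaving out 1 library at a time gave 0 to 2 between diets at day 22, 0 to 1 at day 43, 0 to 7 at day 70, 1 to 9 at STD day 22, 10 to 17 at STD day 70, 1 to 2 at GW3965 day 22, 0 to 1 at GW3965 day 43 and 0 to 2 for the change of the diet difference at day 70. The share of *Col3a1* in collagen was 42.0% by CPM. Of 250 alternative values, of single genes and of collagen medians together, 25 lost the call, all of them of single genes. The other 225 kept the call or, for a median, stayed within 0.44 of the main log2 value. That width allows a change of sign, as between diets at day 70 (0.29, and -0.03 without the 2 libraries that stood apart). Fits that left out 1 library are outside this tally. Among them the GW3965 day 43 median reached 0.36, from -0.10 in the main fit. With 3 or 4 libraries a group, and the ribosomal percentage close to separating day 43 from the other days, day 43 counts rest on the covariate. Genes under about 1 CPM, such as *Col25a1*, rest on few reads.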
